A study of Mus musculus with 84 samples.

Results

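The 8 genes H2-Aa, H2-Ab1, H2-Eb1, H2-DMa, H2-DMb1, H2-DMb2, Cd74 and Ciita, which encode the machinery of MHC class II antigen presentation, were taken by name from a table of 55471 genes. They were followed in RNA-seq of MMC9s, the mucosal mast cells of the small intestine that make IL-9 in mice fed an allergen repeatedly. The genes were listed by name, with earlier results of these data known.

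MHC class II molecules are pairs of an alpha and a beta chain that carry peptides from endosomes to the cell surface, where CD4 T cells read them. The invariant chain, CD74, holds the new pair in shape and blocks its groove, and the DM pair (H2-DMa with H2-DMb1 or H2-DMb2) then swaps the remnant of CD74 for a peptide. CIITA, a coactivator that does not bind DNA itself, switches these genes on together through factors bound to the X and Y boxes of their promoters. Dendritic cells, B cells and macrophages carry class II constitutively or on activation, IL-4 raises it on B cells, and mast cells have been described to acquire it under some conditions.

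All samples were MMC9s of BALB/c mice. The bulk part held 1 RNA-seq library per genotype, each pooled from 12 to 20 biological replicates. Bone marrow progenitors of WT, IL4raY709F or IL4ra-/- mice were transferred into WT mice sensitized to ovalbumin, which were then fed ovalbumin 7 times, 3 times per week. IL4raY709F is labelled a gain-of-function mutant of the IL-4 receptor alpha chain and IL4ra-/- a loss-of-function mutant. The hosts of all 3 groups were WT, and the sources used here do not give whether they kept mast cells or other cells of their own. The single-cell part held 81 WT MMC9s of mice made allergic with ovalbumin and alum, sorted as lineage negative, IL-17RB2- cells that were positive for c-Kit and ST2, high in an IL-4 GFP reporter and low in β7-integrin. The sources used here give neither the gate of the bulk sort nor the exon removed in IL4ra-/-. They name no animal for the cells, which count as 1 sample.

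The bulk libraries held 2299793 to 2521791 reads in genes. After a minimum of 10000 gene reads, 80 of 81 cells were kept, with 163596 to 2210211 gene reads and a median of 1209299; the cell left out had 1225. Il4ra had 806 reads in WT, 1831 in IL4raY709F and 350 in IL4ra-/-, so the library labelled IL4ra-/- had fewer Il4ra reads than WT but not none. The 14 mast cell markers were all found in each bulk library and summed to 69589 CPM (reads scaled to a common total) in WT, 98986 in IL4raY709F and 65915 in IL4ra-/-. Among the kept cells 5 stood apart, with under 1% of their reads in mast cell markers (0.0199% to 0.717%, against 1.17% or more in the other cells). In 2 of those 5, plasma cell markers took 65.5% (cell 46) and 41.2% (cell 37) of the reads, against at most 0.131% in every other kept cell. Cell 46 was the only cell of the 5 with 10 or more reads of a class II gene, and the main counts of cells are also given without it.

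With 1 library per genotype there is no spread between replicates, no test and no p-value. Every interval below is an exact 95% interval that covers counting error only, and reads are not independent molecules. A gene with at least 50 reads in the larger of the libraries compared is called higher or lower when the ratio is at least 2-fold and the interval excludes no change (the size rule). In a bulk library, a change in the number of cells that carry class II RNA and a change in the RNA per cell cannot be told apart.

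RefSeq promoter windows of GRCm38.p6, 250 bases before to 50 after a gene's start, were at hand for 5 of the 8 members (H2-Aa, H2-Eb1, H2-DMa, H2-DMb1 and H2-DMb2) and not for H2-Ab1, Cd74 and Ciita. They were searched on both strands for the core of the X1 box, GNAAC, the core of the Y box, ATTGG, and the module of GNAAC followed after 20 to 35 bases by ATTGG. The stretches below, 95 bases each and read 5′ to 3′ on the strand of the gene, hold the module or, in H2-DMb2, the Y box core alone. The H2-DMa window at 34125268 to 34125567 also held the Y box core alone. That core lay too near the start of the window for a stretch of 95 bases, so none is shown. Capitals mark the Y box core on the strand of the gene and, where the module was found, the X1 box core before it. A further Y box core on the other strand of H2-Eb1, read as ccaat near the end of its stretch, is not marked.
H2-Aa: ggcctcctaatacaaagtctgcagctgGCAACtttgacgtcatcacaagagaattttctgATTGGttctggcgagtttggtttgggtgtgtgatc
H2-Eb1: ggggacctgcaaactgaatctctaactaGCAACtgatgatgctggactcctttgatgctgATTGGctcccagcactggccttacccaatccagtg
H2-DMb1: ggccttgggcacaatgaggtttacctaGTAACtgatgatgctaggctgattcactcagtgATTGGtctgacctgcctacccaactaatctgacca
H2-DMb2: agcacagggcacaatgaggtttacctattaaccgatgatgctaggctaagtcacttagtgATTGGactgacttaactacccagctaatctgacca
They lie on chromosome 17, at chr17:34287837-34287931 (H2-Aa, minus strand), chr17:34305748-34305842 (H2-Eb1, plus strand), chr17:34153070-34153164 (H2-DMb1, plus strand) and chr17:34145099-34145193 (H2-DMb2, plus strand).

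The module was found in the windows of H2-Aa, H2-Eb1 and H2-DMb1, with 28, 27 and 28 bases between the cores, and in neither window of H2-DMa nor in that of H2-DMb2. Of all 32851 promoter windows, 2.67% held the module on either strand, 37.4% held ATTGG and 84.8% held GNAAC. The stretches of H2-DMb1 and H2-DMb2 were the same at 81 of 95 bases. Their difference in the X1 core is G28T, with positions counted from 1 at the 5′ end of the stretch and the base of H2-DMb1 first. These are letters of the reference genome, which is not of the BALB/c strain, and a match or its absence says nothing of binding in these cells.

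The order of levels was led by the invariant chain. Per kilobase of merged exons, the level of Cd74 was 87.6 CPM per kilobase in WT, 74.01 in IL4raY709F and 243.8 in IL4ra-/-, above every other member in all 3 libraries. The chain genes followed, at 13.8 (H2-Aa), 17.7 (H2-Ab1) and 21.8 (H2-Eb1) in WT. Divided instead by the longest protein-coding transcript of GENCODE M21, the WT levels were 104 for Cd74, 46.5 for H2-Aa, 37.5 for H2-Ab1 and 25.4 for H2-Eb1. Cd74 was highest under either length, while the WT order of the 3 chains turned round with the length used, so no order among them is given. The DM genes and Ciita were lower: in WT, H2-DMa had 4.06 CPM per kilobase of merged exons, H2-DMb2 2.25, H2-DMb1 1.04 and Ciita 0.413. Ciita was the lowest member in each library, by either length.

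**Figure D1:**
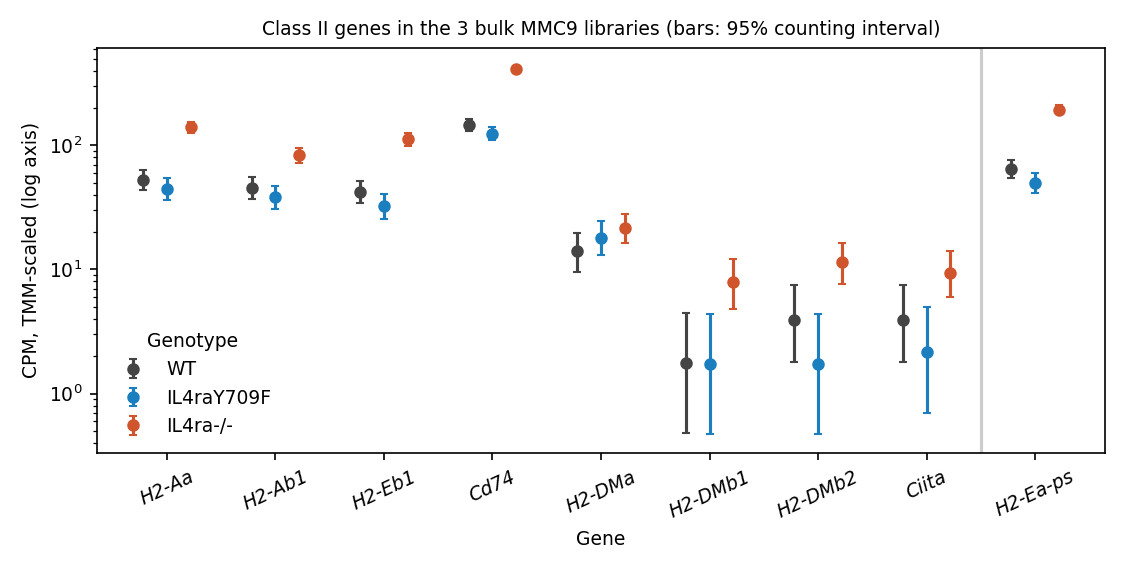
Level of each class II gene (x axis; H2-Ea-ps is no member) in the bulk WT, IL4raY709F and IL4ra-/- libraries, as TMM-scaled CPM on a log axis (y axis), with 1 point per library and bars for the 95% counting interval. For H2-Aa, H2-Ab1, H2-Eb1 and Cd74 the IL4ra-/- point lies above the intervals of the other 2 libraries (Cd74: 409 CPM, against 147 in WT and 124 in IL4raY709F), whereas the intervals of H2-DMa overlap.

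Class II transcripts were more abundant in the IL4ra-/- library than in WT. The 3 chain genes lie close together on chromosome 17 of GRCm38, H2-Aa at 34282744 to 34287823 on the minus strand, H2-Ab1 at 34257689 to 34269419 and H2-Eb1 at 34305867 to 34316674, both on the plus strand. H2-Aa, the alpha chain of I-A, was covered by 120 reads in WT, 104 in IL4raY709F and 357 in IL4ra-/-. Its IL4ra-/- level was 2.67-fold that of WT (2.17 to 3.32), which is 1.42 on the log2 scale. H2-Eb1, the beta chain of I-E, had 97, 76 and 284 reads in the same order, and was 2.63-fold higher in IL4ra-/- than in WT (2.08 to 3.35). In each of these genes WT and IL4raY709F lay close together and IL4ra-/- alone was high. Cd74 (chromosome 18, 60803848 to 60812652, plus strand) had 336, 289 and 1041 reads and was 2.78-fold higher in IL4ra-/- than in WT (2.46 to 3.16). H2-Ab1, the beta chain of I-A, had 104, 89 and 212 reads; its ratio of 1.83-fold (1.44 to 2.34) stayed below the 2-fold limit, though its interval excluded no change. With scaling by total reads the log2 ratio of H2-Ab1 was 1.01, which passes the limit.

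The DM genes and Ciita were covered by few reads. On chromosome 17, H2-DMa spans 34119541 to 34139101, H2-DMb2 34143307 to 34151555 and H2-DMb1 34153072 to 34160230, all on the plus strand. H2-DMa, the alpha chain of DM, had 32 reads in WT, 42 in IL4raY709F and 55 in IL4ra-/-, and its IL4ra-/- to WT ratio of 1.54-fold had an interval that reached no change. H2-DMb1 had 4, 4 and 20 reads, and H2-DMb2 had 9, 4 and 29. These DM beta genes are near copies of each other. Of the 50-base stretches of the H2-DMb1 transcript, 27.2% also occur in H2-DMb2, so the split of reads between them is uncertain. Ciita (chromosome 16, 10480059 to 10528418, plus strand) had 9 reads in WT, 5 in IL4raY709F and 24 in IL4ra-/-. The last 3 genes were highest in IL4ra-/- too, at 4.49-fold WT (1.51 to 18.1) for H2-DMb1, 2.90-fold (1.33 to 6.95) for H2-DMb2 and 2.40-fold (1.08 to 5.86) for Ciita, but had under 50 reads and were not called.

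Thus, of the 8 members, 5 had enough reads in the comparison of IL4ra-/- with WT, and 3 of the 5 (H2-Aa, H2-Eb1 and Cd74) were higher and 0 lower. Of all 6246 genes with enough reads, 2.43% were higher and 1.3% lower. The median log2 ratio of the 5 members was 1.40, against -0.08 over all genes. By the size of the ratio Cd74 ranked 68, H2-Aa 73, H2-Eb1 79, H2-Ab1 199 and H2-DMa 375 of the 6246 from the highest. With a minimum of 20 reads all 8 members had enough, and 6 were higher, H2-Ab1 and H2-DMa being the others, against 4.87% higher of 8630 genes. H2-DMb1, H2-DMb2 and Ciita reached 20 reads in IL4ra-/- alone. Passing that minimum thus already needed a high level there, and their calls add no support. Summed over the 8 members, reads were 711 in WT (311 CPM) and 2022 in IL4ra-/- (795 CPM), a ratio of 2.56 (2.35 to 2.79).

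In the gain-of-function library no member was called. In IL4raY709F against WT, 4 members had enough reads and 0 were called, against a background of 1.68% higher and 0.771% lower among 5964 genes. All 4 log2 ratios were below 0: -0.23 for H2-Aa, -0.25 for H2-Ab1, -0.38 for H2-Eb1 and -0.24 for Cd74, of which only the interval of Cd74 (-0.47 to -0.01) excluded no change. The median was -0.25, against 0.02 over all genes. The summed members stood at 613 reads (264 CPM), 0.847 of WT (0.759 to 0.945). An interval for H2-Aa of -0.62 to 0.16 leaves room for a level up to 1.54-fold lower.

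Set directly against IL4ra-/-, IL4raY709F had 4 of 5 members lower and 0 higher: H2-Aa by 3.14-fold (2.52 to 3.94), H2-Eb1 by 3.42-fold (2.64 to 4.46), Cd74 by 3.29-fold (2.89 to 3.77) and H2-Ab1 by 2.18-fold (1.69 to 2.82). H2-DMa, at a log2 ratio of -0.26 (-0.88 to 0.35), was not. The background here was 3.5% lower and 4.62% higher of 6319 genes, and the median was -1.65, against 0.09 over all genes. The 3 comparisons share their libraries, so this one adds no separate evidence to the other 2.

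**Figure D2:**
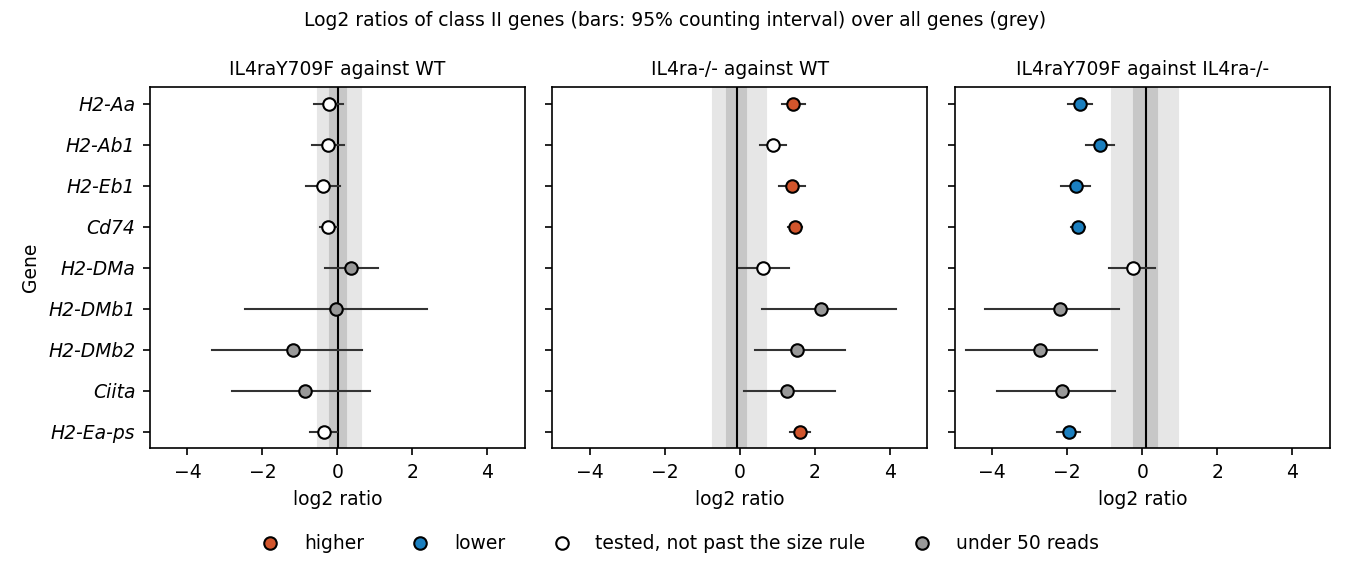
Log2 ratios (x axis) of the class II genes (y axis) in the 3 bulk comparisons, with bars for the 95% counting interval, over the central 50% (dark grey) and 90% (light grey) and the median (black line) of all genes with at least 50 reads in the larger library. In IL4ra-/- against WT, H2-Aa (1.42), H2-Eb1 (1.40) and Cd74 (1.48) lie to the right of the grey bands, and in IL4raY709F against WT the same genes (-0.23, -0.38 and -0.24) lie left of the dark band and within the light one.

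A further class II gene behaved like the members. H2-Ea-ps (chromosome 17, 34341959 to 34344645, minus strand) is annotated as a polymorphic pseudogene because the reference strain carries a broken copy, while BALB/c mice make the I-E alpha chain from it. It had 147 reads in WT, 116 in IL4raY709F and 494 in IL4ra-/-, a ratio of 3.02-fold to WT (2.51 to 3.66) in the last. H2-Eb1 and H2-Ea-ps, the chains of I-E, were thus high in the same library. The other 3 class II genes, H2-Oa and H2-Ob (the DO pair, which restrains DM) and H2-Eb2, had at most 12 reads in any library. BALB/c alleles of these polymorphic genes differ from the reference genome, and the effect of that on the counts was not tested.

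The makeup of class II reads was similar in WT and IL4raY709F and shifted in IL4ra-/-. Cd74 took 47.3% of the reads of the 8 members in WT (43.5 to 51), 47.1% in IL4raY709F and 51.5% in IL4ra-/- (49.3 to 53.7). H2-Ab1 took 14.6% in WT (12.1 to 17.4) and 10.5% in IL4ra-/- (9.18 to 11.9), and H2-DMa 4.50% (3.10 to 6.29) and 2.72% (2.06 to 3.53). The intervals of WT and IL4ra-/- did not overlap for H2-Ab1 and overlapped for Cd74 and H2-DMa. Per kilobase of merged exons, Cd74 stood at 4.94 times H2-Ab1 in WT (3.95 to 6.22) and 7.51 times in IL4ra-/- (6.47 to 8.75). Its ratio to H2-Aa was 6.33 (5.13 to 7.87) and 6.60 (5.84 to 7.46). The size of these ratios depends on the length used, though their change between libraries does not. By the longest protein-coding transcript the gaps were smaller, with WT levels of 104 for Cd74, 37.5 for H2-Ab1 and 46.5 for H2-Aa.

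The genes around the members were read from lists. Of 8 genes for endosomal processing and class II turnover, 5 had enough reads in IL4ra-/- against WT and 2 were higher: Ctss, the protease cathepsin S that trims the invariant chain, with 45 reads in WT, 29 in IL4raY709F and 179 in IL4ra-/-, and Lgmn, the asparagine endopeptidase legumain, with 44, 28 and 140. Ctsb and Ctsd, general lysosomal cathepsins, were not called in any comparison. In IL4raY709F against IL4ra-/-, Ctss was lower by 5.65-fold (3.798 to 8.67) and Lgmn by 4.57-fold (3.03 to 7.13), and in IL4raY709F against WT 0 of 3 were called.

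Among 16 genes of the class II enhanceosome and its upstream signals (the RFX and NF-Y subunits, Creb1, interferon regulatory factors and the kinases Jak1 and Jak2), 0 of 12 were called in IL4ra-/- against WT, with a median log2 ratio of -0.15. Jak1 was higher in IL4raY709F, with 2433 reads in WT, 5503 in IL4raY709F and 1804 in IL4ra-/- (2.22-fold over WT, 2.12 to 2.33). It was the 1 gene of 11 called there. Jak1 and Jak2 (1.02 on the log2 scale) were higher in IL4raY709F than in IL4ra-/-; with total-read scaling Jak2 was at 0.78 and not called.

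Of 10 costimulatory genes, Cd83, which stabilizes class II at the surface, was 2.95-fold higher in IL4ra-/- than in WT (25 and 82 reads; 1.86 to 4.82), the 1 gene of 6 called. Against IL4ra-/-, IL4raY709F had Cd83 lower (3.57-fold, 2.19 to 6.07) and Cd86, a ligand of CD28, higher (2.19-fold, 1.53 to 3.16). Genes of MHC class I presentation, which most cell types carry, gave 0 of 13 called in any of the 3 comparisons, with median log2 ratios of -0.24 for IL4ra-/- and 0.05 for IL4raY709F against WT. B2m, the light chain of class I, was among the 13.

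Most macrophage and monocyte markers with enough reads were high in IL4ra-/-, the library where the class II genes were high. In IL4ra-/- against WT, 9 of the 10 macrophage and monocyte markers with enough reads were higher, among them Csf1r, C1qa, C1qb, C1qc, Mrc1, Lyz2 and Mpeg1, with a median log2 ratio of 1.61. Lyz2 had 103 reads in WT, 40 in IL4raY709F and 414 in IL4ra-/-; Mpeg1 had 71, 38 and 336; Csf1r, the receptor for the macrophage growth factor CSF1, had 40, 16 and 173. The tenth, Cx3cr1, had 1389, 1504 and 1659 reads and was not called. Cx3cr1 made up most of the list's sum of 808, 756 and 1302 CPM, and as 68 of the 80 cells held it at 10 or more reads, the sum was also taken without it, a choice made after the values were seen. The other 15 markers, all above 0 in each library, summed to 200.4 CPM in WT, 109.6 in IL4raY709F and 649.2 in IL4ra-/-, a ratio to WT of 3.24 (2.92 to 3.60) in IL4ra-/- and 0.547 (0.468 to 0.639) in IL4raY709F. Not each of the 15 rose: Cd68 had 21, 24 and 22 reads in WT, IL4raY709F and IL4ra-/-. Cd163 (12, 7 and 15) and Aif1 (16, 12 and 24) rose little from WT to IL4ra-/-. The order of the sum was that of the class II genes, IL4ra-/- over WT over IL4raY709F, with a wider range. Per read of the 15 markers there were 1.55 class II reads in WT, 2.40 in IL4raY709F and 1.22 in IL4ra-/-. The part of macrophage RNA in the class II difference was not tested.

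Lists of other cell types gave further values. Dendritic cell markers other than class II genes summed to 27.1, 36.98 and 59.8 CPM in WT, IL4raY709F and IL4ra-/-, and the 1 of 12 with enough reads, Itgax, was 2.57-fold higher in IL4ra-/- than in WT. The defining genes were near 0 and went different ways. In the same order of libraries, Flt3 had 0, 0 and 3 reads, Clec9a 0, 0 and 2, and Zbtb46 0, 4 and 5. Batf3 had 0, 2 and 0 reads, Xcr1 1, 1 and 0, and Cd209a 1, 0 and 0. Of the 12 genes, 5, 3 and 4 were at 0 in WT, IL4raY709F and IL4ra-/-. B cell markers summed to 51, 47 and 92 reads, with no gene of the 10 reaching 50. Plasma cell markers, mostly immunoglobulin, took 6578, 3018 and 13397 CPM; 4 of 5 were higher in IL4ra-/- (Igkc, Ighm, Ighg1 and Jchain) and 3 of 4 lower in IL4raY709F (Igkc, Igha and Jchain). Epithelial markers summed to 69, 78 and 245 reads, with Lgals4 higher in IL4ra-/- than in WT (2.52-fold, 1.49 to 4.43). Their part in the class II values was not tested either.

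Mast cell markers did not move with the class II genes. In IL4ra-/- against WT 0 of 14 were called (median log2 ratio -0.11), with Kit at 6769 reads in WT and 7625 in IL4ra-/-, and Cpa3, the mast cell carboxypeptidase, at 34193 and 38262. Mcpt1 and Mcpt2, the mucosal mast cell proteases, were at 1.37-fold and 1.12-fold WT. In IL4raY709F the median log2 ratio of the 14 markers was 0.41 against WT and 0.56 against IL4ra-/-, above 0 where that of the class II members was below 0. There Cma1 was 3.19-fold higher than in WT, and Cma1, Tpsb2 and Hdc were higher than in IL4ra-/-. T cell markers had 0 of 1 and eosinophil markers 0 of 1 called in each comparison. Among basophil markers Prss34 had 101 reads in WT, 265 in IL4raY709F and 32 in IL4ra-/-, and was called higher and lower than WT in turn. Per 1000 mast cell marker reads there were 4.47 class II reads in WT, 2.66 in IL4raY709F and 12.1 in IL4ra-/-.

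**Figure D3:**
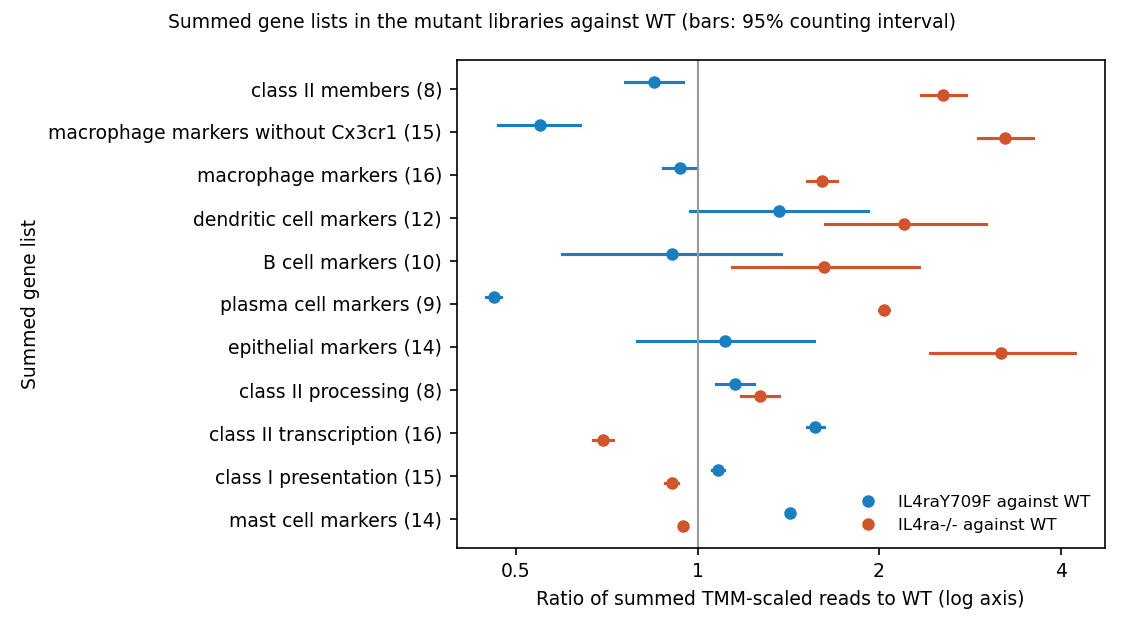
Ratio to WT (x axis, log scale) of summed TMM-scaled reads of each gene list (y axis, number of genes in brackets) in the IL4raY709F and IL4ra-/- libraries, with bars for the 95% counting interval. In IL4ra-/- the class II members (2.56) lie with the macrophage markers without Cx3cr1 (3.24), plasma cell markers (2.04) and epithelial markers (3.19), while mast cell markers (0.947) and class I genes (0.907) lie near 1.

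The single cells show class II RNA cell by cell, where mast cell identity can be read in the same library. At 10 or more reads, 38 of 80 WT cells held at least 1 member, a share of 47.5% (36.2 to 58.98). H2-Ab1 was found in 22 cells (27.5%, 18.1 to 38.6) and H2-DMa in 20 (25%, 15.99 to 35.9). Cd74 was found in 14 cells (17.5%, 9.91 to 27.6) and H2-Aa in 12 (15%, 7.998 to 24.7). H2-Eb1 was found in 3 cells, H2-DMb1 and H2-DMb2 in 2 each, and Ciita in 0 of 80, which allows a share of up to 4.51%; a lone Ciita read lay in cell 69. By comparison B2m, the light chain of class I, was found in all 80 cells and H2-D1 in 78. At 1 or more reads 63 cells held a member (78.8%), and at 100 or more 28 (35%), so the share depends on the reads asked for.

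Class II reads were concentrated in few cells. The cells held 25919 reads of the 8 members, of which 29.1% lay in 1 cell, 47.8% in 2 and 67.1% in 5, and the median level over all 80 cells was 6.34 CPM. Cell 14 held 2119 reads of H2-Aa, 1822 of H2-Ab1, 764 of H2-Eb1, 905 of H2-DMa, 1942 of Cd74 and 2704 of H2-Ea-ps. Cell 36 held 3132 of H2-Aa, 542 of H2-Ab1, 124 of H2-DMb1, 70 of H2-DMb2, 981 of Cd74 and 456 of H2-Ea-ps. Cell 40 held 553 of H2-Aa, 1170 of H2-Ab1, 199 of H2-Eb1, 142 of Cd74 and 1191 of H2-Ea-ps. These 3 cells were the only ones with 4 or more members, and cells 14 and 36 stood alike in their summed level, at 4863 and 4986 CPM.

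The cells with the most class II RNA carried mast cell genes, at levels that ran from high to low among the 80 cells. Cell 14 had 11 of the 14 mast cell markers at 10 or more reads, with Cpa3 at 9023 CPM (rank 62 of 80), Mcpt1 at 23843 CPM (rank 9) and Kit at 224 CPM (rank 68). Cell 36 had 13 of 14, with Cpa3 at 9906 CPM (rank 61), Mcpt1 at 32.9 CPM (rank 74) and Kit at 157 CPM (rank 69), against a median Kit of 1734 CPM. Cell 40 had 13, with Cpa3 at 18263 CPM (rank 31) and Kit at 1965 CPM (rank 36). The mast cell markers together took 6.14% of the reads of cell 14, 2.64% of cell 36 and 5.09% of cell 40, against a median of 6.8% over all 80 cells. The number of markers at 10 reads is a coarse measure: cells 37 and 79, with 0.100% and 0.156% of their reads in these markers, also had 11 of 14. Over the 38 cells with a member, the number of mast cell markers ran from 9 to 14 with a median of 13, the same range and median as over all 80 cells; the lowest, 9, was that of cell 46, and without it the range began at 11. Median Cpa3 was 17466 CPM in the 38 cells and 16395 CPM in all 80.

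**Figure D4:**
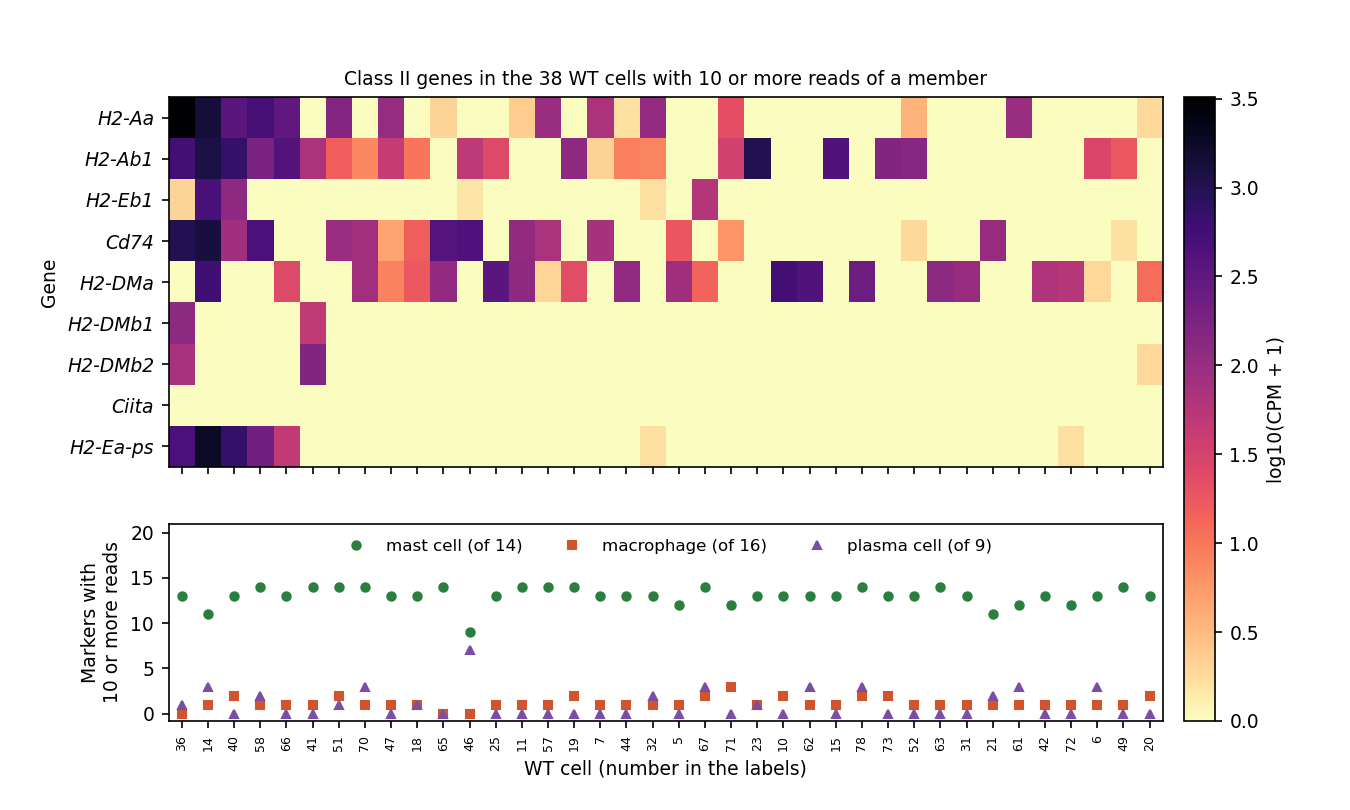
Level of each class II gene (rows) as log10(CPM + 1) in the 38 WT cells with 10 or more reads of a member (columns, numbered as in the labels and ordered by the number of members and their summed level), above the number of mast cell, macrophage and plasma cell markers with 10 or more reads in the same cells. The columns at the left hold several members at once, most cells have 11 to 14 mast cell markers, and cell 46 alone has 7 plasma cell markers.

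Defining macrophage markers were nearly missing from the cells. C1qc, Mrc1, Adgre1, Fcgr1 and Mpeg1 had 0 reads in all 80 cells, C1qb had 1 read and Lyz2 had 3. Of the 15 macrophage markers other than Cx3cr1, 7 reached 10 reads in no cell, and C1qa was the most widely found, in 7 cells. At least 1 of the 15 was found in 17 of 80 cells and in 10 of the 38 cells with a member. Over the 37 markers of macrophages (without Cx3cr1), dendritic cells and B cells together, 18 of the 38 cells with a member (47.4%) and 28 of the 42 without (66.7%) had none at 10 reads. The 46 cells without any of them held 17194 class II reads, 66.3% of all. Of these reads, 7552 lay in cell 14 and 4850 in cell 36, so the share rests largely on those cells. Cell 40 had Cd79b (297 reads) and Cd163 (76 reads).

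Depth and the cells that stood apart touch these shares. Of the 40 cells below the median of gene reads 14 held a member, against 24 of the 40 at or above it, and the median depth was 1451852 reads in cells with a member. The part of depth was not tested. Cell 46, with its high immunoglobulin content, held 799 reads of Cd74 and 87 of H2-Ab1, next to Cd79b and Tnfrsf17, and had the lowest Cpa3 of all 80 cells. Without it, a choice made after its values were seen, 37 of 79 cells held a member, H2-Ab1 was found in 21, Cd74 in 13, and 11 cells held exactly 2 members.

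Members were often found alone. Of the 38 cells, 16 held exactly 1 member, 12 held 2, 7 held 3, 1 held 4 and 2 held 5. In the 16 cells with 1 member it was H2-DMa in 8, H2-Ab1 in 6, H2-Aa in 1 and Cd74 in 1. The I-A chains overlapped in 9 cells, which is 75% of the cells with H2-Aa and 40.9% of those with H2-Ab1. H2-Aa and Cd74 overlapped in 7 cells (58.3% and 50%), whereas H2-DMa and H2-Aa overlapped in 3 (15% of the cells with H2-DMa). H2-DMb1 and H2-DMb2 were found in the same 2 cells, 36 and 41, neither of which had a read of H2-DMa. All 5 cells with H2-Ea-ps (14, 36, 40, 58 and 66) held H2-Aa and H2-Ab1.

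H2-DMa, the member that most often stood alone, shares 360 of its 3448 exon bases with Brd2, a widely expressed gene on the opposite strand. The sources used here do not give whether the counting used strand, so reads there cannot be assigned with certainty. Brd2 was found in 55% of the cells with H2-DMa and in 53.3% of the others. In bulk Brd2 had 1490, 1692 and 1329 reads in WT, IL4raY709F and IL4ra-/-, and H2-DMa had 32, 42 and 55. The part of Brd2 in the H2-DMa reads was not tested.

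The makeup of class II reads in the cells differed from that in WT bulk. Cd74 took 22.6% of the members' reads summed over the 80 cells, against 47.3% in the WT bulk library, H2-DMa took 16.1% against 4.50%, and H2-Eb1 4.07% against 13.6%. Without the 2 cells rich in plasma cell markers the share of Cd74 was 20.2%, without cell 14 it was 21.3%, and as a mean of per-cell shares it was 13.3%. Without cell 14 the share of H2-Eb1 was 1.58%. Summed class II levels were 278 CPM over the cells and 311 CPM in WT bulk. The sum over the cells rests on few of them, with 47.8% of its reads in 2 cells and a median of 6.34 CPM per cell. The 15 macrophage markers stood at 20.8 CPM over the cells and 200.4 CPM in WT bulk. The part of macrophage RNA in these levels was not tested. The cells came from another allergy model, so these values are set side by side without a test.

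The other parts of the presentation route were unevenly present in the cells. Ctsd was found in 83.8% and Ctsb in 66.3% of the cells, but Ctss in 2.50% and Lgmn in 6.25%. Among the inhibitory ligands of T cells, Pdcd1lg2 was found in 65% and Cd274 in 57.5% of cells, and the costimulatory ligand Cd86 in 18.8%. Cd40, Icosl, Tnfsf18 and the transcription factor Irf8 had 0 reads in any cell. The cells thus held the general cathepsins and 2 PD-1 ligands widely and cathepsin S rarely.

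Genes whose level went most closely with the chains and Cd74 across cells were led by Lsp1, a leukocyte actin-binding protein (Pearson r = 0.563 between log2(CPM + 1) values, over 80 cells and 8562 genes compared). It was followed by Slc39a13 (0.534), H2-Ea-ps (0.521), Arhgef6 (0.484), H2-T24 (0.445), Gnpda1 (0.433), Tmem173 (0.428), Ptpre (0.423), Ssr2 (0.416) and Pex2 (0.415). The cells are of 1 sample and differ in depth, most values are 0, and the ranking was taken over all genes compared, so these are descriptions. Without the 2 cells highest in class II the r of Lsp1 was 0.485 and that of H2-Ea-ps 0.368. Cpa3 (r = 0.033), Kit (-0.105), Mcpt1 (-0.144) and Mcpt2 (-0.110) did not go with class II RNA.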

How the data were processed

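HISAT (alignment) and featureCounts of Subread 2.0.0 (assignment to genes) are the tools named, per the submitters' processing notes, beside the builds GRCm38 and mm9 without roles. What the authors deposited are raw read counts per gene for 3 bulk libraries and 81 single cells. Of 55471 gene IDs, 55230 were in GENCODE M21 (GRCm38), 54900 with the same chromosome, start and end. Handling of multi-mapping reads and strand: not given in the sources used here. In the gene names, 27 had been turned into dates and were restored by ID.

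Counts were scaled with TMM (edgeR 4.0.16, R 4.3.3), with total reads and DESeq2 1.42.0 size factors as alternatives. Ratios carry an exact conditional binomial (Clopper-Pearson) 95% interval, levels an exact Poisson interval and shares an exact binomial one. A floor of 3 reads equals 1.18 to 1.31 CPM. The calling script was tested on simulated counts. Cells were sorted individually. Doublets and RNA carried over from other cells were not tested for, and nothing was clustered.

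Always named were the 8 members, H2-Ea-ps, Il4ra, Kit, Cpa3, Mcpt1 and Mcpt2, then list genes past the size rule in any comparison, and the 10 genes with the highest r across cells (10 or more reads in at least 5 cells). Other genes with values were chosen after their values were seen. The members and lists were chosen with earlier results of these data known.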

Additional observations from a re-analysis of the deposited data

How the results depend on the processing

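With 1 library per genotype, no interval covers the spread between animals or preparations, and H2-DMb1, H2-DMb2 and Ciita were limited by depth. No paired analysis was possible because each genotype has 1 bulk library and the cells are of 1 genotype. Total-read scaling shifted all genes by -0.11, 0.13 and -0.24 on the log2 scale in IL4raY709F against WT, IL4ra-/- against WT and IL4raY709F against IL4ra-/-. Under that scaling the split of higher and lower genes was 71 and 69 in place of 100 and 46 in the first comparison, 207 and 45 in place of 152 and 81 in the second, and 145 and 359 in place of 292 and 221 in the third.

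No median or sum of the members changed its direction or side of the 2-fold limit under the alternatives run (total reads, DESeq2 size factors, TMM without immunoglobulin genes, other read minimums, H2-DMb1 and H2-DMb2 summed). With at least 20 reads or with no read minimum, 6 members were higher in IL4ra-/- than in WT in place of 3, and 7 lower in IL4raY709F than in IL4ra-/- in place of 4, because more members had enough reads. The added members, H2-DMb1, H2-DMb2 and Ciita, reached 20 reads in IL4ra-/- alone, so at that minimum their calls add no support. The share of all genes called rose as well: 4.87% (420) at 20 reads and 3.24% (630) with no minimum were higher in IL4ra-/- than in WT, in place of 2.43%, and 6.25% (544) and 4.48% (871) were lower in IL4raY709F than in IL4ra-/-, in place of 3.5%. With at least 100 reads these shares were 1.34% (58) and 1.98% (87), and 3 of 4 and 4 of 4 members were called. The share of cells with a member was 78.8% at 1 or more reads and 35% at 100 or more, in place of 47.5%. The share of Cd74 in the cells' class II reads was 21.3% without the cell with the most member reads, 20.2% without the cells rich in plasma cell markers or poor in mast cell markers (both chosen after seeing the data), and 13.3% as a mean of per-cell shares, in place of 22.6%.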
